A study of Mus musculus with 6 samples.

Results

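The glutathione, thioredoxin and NRF2 antioxidant genes are a set of 36 genes, named by symbol, out of 55291 gene symbols in the deposited table of mouse bone marrow-derived macrophages (BMDM). BMDM are phagocytes grown in culture from marrow precursors. In the study, 3 poly(A) RNA libraries came from BMDM pretreated with apoptotic cells (AC pretreated, replicates 1 to 3) and 3 from BMDM without that pretreatment (untreated, replicates 1 to 3). What the apoptotic cells were, how many were added and for how long was not given in the sources used here, nor were mouse strain, age and sex. All 36 symbols were found, and all are protein-coding genes of GENCODE M21 on mm10.

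Macrophages that engulf other cells handle oxidants made by their own NADPH oxidase and mitochondria. NRF2, encoded by Nfe2l2, is the transcription factor that switches on much of the defence, and KEAP1 holds it in check by marking it for degradation until electrophiles or oxidants modify KEAP1. Its targets bind or reduce reactive compounds with glutathione, a small thiol peptide, or with thioredoxin, a small thiol protein, and both are recharged with electrons from NADPH. The NRF2 program is controlled largely through the stability of the protein, which transcript levels do not show.

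Levels are given as TPM (transcripts per 1000000 transcripts), a share of all transcripts per unit length, so genes can be set side by side. A difference is the mean log2(TPM + 1) of AC pretreated libraries minus that of untreated ones, given with its SE, and this scale makes changes of low genes look smaller. The test was limma across all 12603 genes that reached 1 TPM in 3 or more libraries. Of the 36 genes, 33 passed that filter. Me1, Mgst2 and Sod3 did not. The labels do not tie replicates to cultures or animals, so the p-values speak of the spread between these libraries alone, and that spread may be technical.

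The libraries held 19042049 to 32212701 recovered reads on genes. All 12 macrophage markers were above 1 TPM in some library and summed to 60147 to 74275 TPM in AC pretreated and 58959 to 65040 TPM in untreated libraries. The lysozyme gene Lyz2 stood at 83.7 TPM in untreated replicate 1, against 9270 to 12451 TPM elsewhere. Of 16 T cell and thymocyte markers, 14 stayed below 1 TPM in every library, with Cd3d, Cd8b1, Cd2 and Themis at 0. Their sum was 11.1 to 17.9 TPM in AC pretreated and 9.99 to 16.1 TPM in untreated libraries. Of that, Cd4 alone made up 9.65 to 16.8 TPM and 9.48 to 14.8 TPM. Of 20 placental markers, 18 were present in some library. Those transcripts summed to 35.0, 168 and 0.0695 TPM in AC pretreated replicates 1, 2 and 3 and to 19.3, 38.8 and 0.0 TPM in untreated replicates 1, 2 and 3, so replicates 1 and 2 of both groups held them. Of 7 epithelial markers, 5 stayed below 1 TPM in every library, with Epcam, Krt5 and Krt14 at 0. The sums of the 7 did not overlap between the groups, at 2.10 to 5.09 TPM in AC pretreated and 0.650 to 1.71 TPM in untreated libraries. Krt8 had 1.01 to 2.17 TPM in AC pretreated and 0.0 to 0.896 TPM in untreated libraries, on 0 to 29 reads. Krt18 had 0.691 to 2.24 TPM and 0.0 to 0.385 TPM, on 0 to 22 reads. The part of these transcripts in the results below was not tested.

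Promoters of 32 of the 36 genes were in the RefSeq promoter table (GRCm38.p6, the same assembly as mm10), which holds 250 bases before and 50 after each annotated start. Those of Gclc, Gsr, Prdx6 and Sod3 were not matched. They were searched on both strands for the core of the antioxidant response element, the site that NRF2 binds with a small MAF partner, written as TGACNNNGC or TGAGNNNGC. These motifs differ in the base after TGA, so no stretch matches both on the same strand and at the same place. TGACNNNGC was found in 10 of the 32 (31.2%), against 14.0% of all 27025 genes with a promoter. TGAGNNNGC was found in 5 (15.6%), against 19.8% of all genes. Either was found in 13 (40.6%), against 30.8%. Some genes have several promoters in the table and count as matched by any of them. Counted by promoter, 13 of 41 (31.7%) held either motif, against 27.8% of all promoters. The 13 were Nfe2l2, Gclm, Txn2, Txnrd1, Srxn1, Prdx1, Sod1, Gstp1, Mgst1, G6pdx, Pgd, Taldo1 and Me1. A match is a description of letters, not a site shown to be bound.

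The promoters printed here belong to the regulator itself and to a member of each of the glutathione synthesis, thioredoxin, peroxiredoxin repair, peroxiredoxin and glutathione transferase groups, so that the matches can be seen beside the levels given further on. They run 5′ to 3′ on the strand of the gene, with the motif matches in capitals.
Nfe2l2 (chr2:75704614-75704913, minus strand): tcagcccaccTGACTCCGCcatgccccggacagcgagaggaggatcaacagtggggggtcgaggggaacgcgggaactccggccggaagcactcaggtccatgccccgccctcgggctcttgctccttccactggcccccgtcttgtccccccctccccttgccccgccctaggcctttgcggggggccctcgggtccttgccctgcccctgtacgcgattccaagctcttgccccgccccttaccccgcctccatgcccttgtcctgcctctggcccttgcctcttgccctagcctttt
Gclm (chr3:122245307-122245606, plus strand): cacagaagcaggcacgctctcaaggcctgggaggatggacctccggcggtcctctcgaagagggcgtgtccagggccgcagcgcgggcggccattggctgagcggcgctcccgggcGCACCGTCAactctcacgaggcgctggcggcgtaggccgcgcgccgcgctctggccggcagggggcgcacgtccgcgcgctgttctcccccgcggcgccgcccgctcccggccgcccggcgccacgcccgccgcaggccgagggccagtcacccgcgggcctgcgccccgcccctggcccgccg
Txnrd1 (chr10:82858956-82859255, plus strand): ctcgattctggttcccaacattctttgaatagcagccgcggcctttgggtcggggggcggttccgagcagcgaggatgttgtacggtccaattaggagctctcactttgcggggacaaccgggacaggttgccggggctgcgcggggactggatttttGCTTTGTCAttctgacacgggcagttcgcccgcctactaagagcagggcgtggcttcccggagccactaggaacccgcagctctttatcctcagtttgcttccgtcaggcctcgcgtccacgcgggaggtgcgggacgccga
Srxn1 (chr2:152105274-152105573, plus strand): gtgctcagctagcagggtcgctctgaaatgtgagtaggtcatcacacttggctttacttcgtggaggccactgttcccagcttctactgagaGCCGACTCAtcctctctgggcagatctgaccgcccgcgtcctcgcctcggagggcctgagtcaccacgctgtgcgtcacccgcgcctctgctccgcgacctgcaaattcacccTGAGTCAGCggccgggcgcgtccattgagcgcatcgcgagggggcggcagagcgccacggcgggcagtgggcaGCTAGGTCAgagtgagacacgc
Prdx1 (chr4:116685349-116685648, plus strand): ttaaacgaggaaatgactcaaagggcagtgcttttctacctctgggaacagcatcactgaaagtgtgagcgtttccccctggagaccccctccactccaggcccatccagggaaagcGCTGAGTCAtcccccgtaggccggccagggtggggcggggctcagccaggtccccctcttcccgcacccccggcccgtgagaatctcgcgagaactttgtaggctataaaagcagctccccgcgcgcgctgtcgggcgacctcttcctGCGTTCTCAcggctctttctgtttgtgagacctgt
Gstp1 (chr19:4037863-4038162, minus strand): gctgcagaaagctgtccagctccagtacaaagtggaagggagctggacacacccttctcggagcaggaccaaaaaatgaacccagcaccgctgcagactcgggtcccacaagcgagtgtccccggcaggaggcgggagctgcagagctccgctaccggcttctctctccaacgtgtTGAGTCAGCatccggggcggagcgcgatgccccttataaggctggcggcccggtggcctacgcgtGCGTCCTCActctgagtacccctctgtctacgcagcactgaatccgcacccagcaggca
Srxn1 held 3 matches, Prdx1 and Gstp1 held 2 each, and the other printed promoters held 1. The same 9 bases, TGAGTCAGC, stood 74 bases before the start of Gstp1 and 45 bases before that of Srxn1. Nqo1, a gene often used to read NRF2 activity, had no match within its window.

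The antioxidant genes together took 0.491% to 0.607% of all TPM. Their levels summed to 5968, 6067 and 4906 TPM in AC pretreated replicates 1, 2 and 3, and to 5226, 5346 and 5592 TPM in untreated replicates 1, 2 and 3. The AC pretreated libraries thus lay on both sides of the untreated ones. Peroxide-removing enzymes stood at the top. Gpx1 and Prdx1 averaged 972 and 937 TPM over the 6 libraries, with ranges that overlapped, and both lay clear of Gpx4 at 382 TPM. From Gpx4 down to Gsto1 (87.6 TPM) each gene's range overlapped that of its neighbour, so no strict order can be read there. Below Sod2 at 15.4 TPM the genes separated, with Gclm at 10.9, Gss at 5.61 and Nqo1 at 1.92 TPM. Me1, Mgst2 and Sod3 averaged under 1 TPM.

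**Figure D1:**
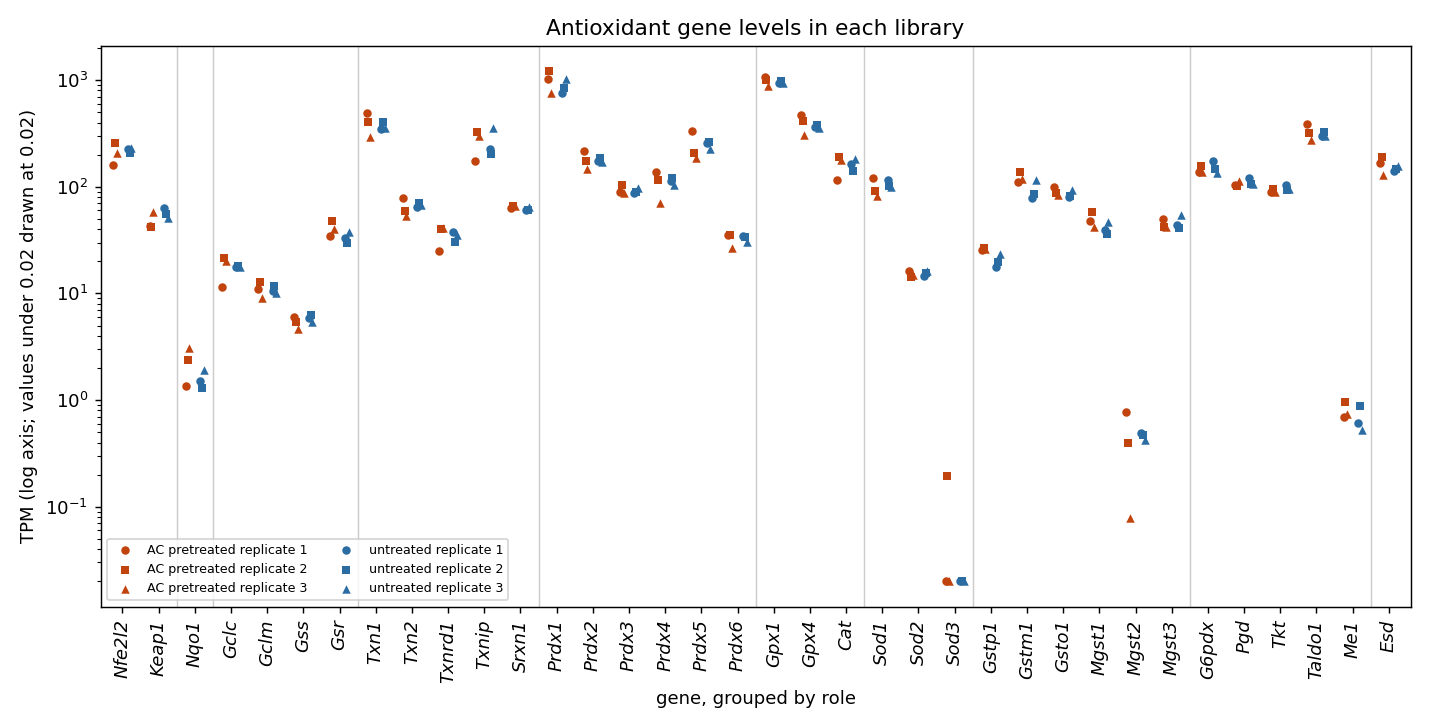
Level of each of the 36 antioxidant genes in TPM on a log axis, grouped by role along the x axis, with AC pretreated libraries in orange left of untreated libraries in blue and a marker shape for each replicate. Gpx1 and Prdx1 average 972 and 937 TPM, while Me1, Mgst2 and Sod3 stay under 1 TPM in every library, and the colours overlap for all genes but Gstp1.

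The comparison between the groups asked whether pretreatment with apoptotic cells changed these transcripts. No antioxidant gene passed the test: 0 of 33 had an adjusted p under 0.05 by limma (0.0% of all genes tested), and each had an adjusted p of 1.0. At an unadjusted p under 0.05 there were also 0 of 33, against 1.3% of all genes tested. By voom on recovered reads 0 passed, with 2 at an unadjusted p under 0.05, Gstm1 and Gstp1, against 97 of 12202 genes tested. Over the alternatives with a test this count ran from 0 to 5. The 5 came from the libraries with placental transcripts alone, where 599 of 12603 genes tested were under 0.05. Means were higher after AC pretreatment for 18 of 33 genes, against 29.4% of all genes tested, and lower for 15, against 70.6%. Their median difference was 0.01, beside -0.07 over all genes tested. With median-of-ratios scaling 24 of 33 had higher means. That scaling moved the median over all genes to -0.01, so the 29.4% does not apply to it. The share of all genes with higher means under it was not worked out. The interval of the difference lay inside 2-fold for 33 of 33 genes (87.4% of all genes tested) and inside 1.5-fold for 23 of 33 (46.1%). These bounds are on the log2(TPM + 1) scale. In bulk RNA, fewer cells that express a gene and less of its RNA per cell cannot be told apart.

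**Figure D2:**
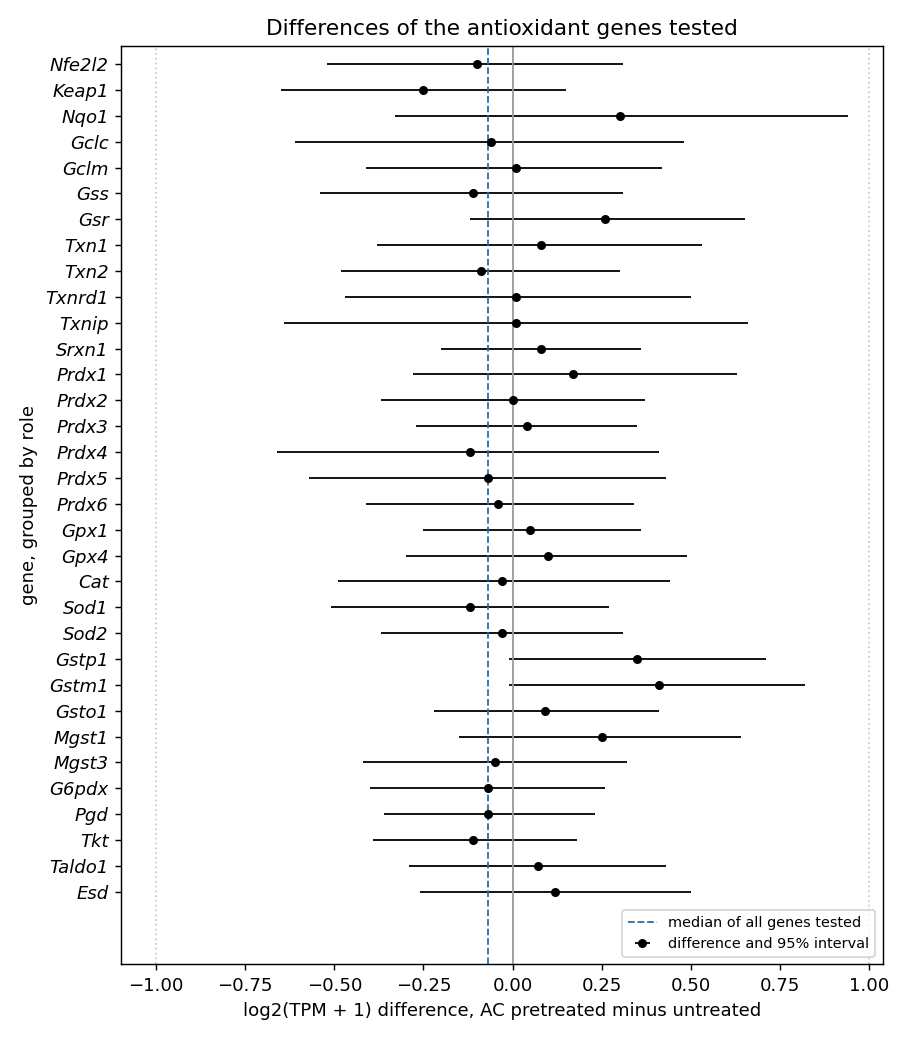
Difference on the log2(TPM + 1) scale, AC pretreated minus untreated, for the 33 antioxidant genes tested, as points with 95% intervals from limma (n = 3 libraries per group). Every interval crosses 0 and lies within the dotted lines at a 2-fold change, and the dashed line marks the median of all genes tested at -0.07.

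The regulator and its inhibitor had lower means after AC pretreatment, within the spread of the libraries. Nfe2l2 (chromosome 2, 75675513 to 75704641) had 161, 259 and 208 TPM in AC pretreated replicates 1, 2 and 3, against 224, 209 and 231 TPM in untreated replicates 1, 2 and 3, a difference of -0.10 ± 0.18. Both its lowest and its highest library were AC pretreated. Keap1 (chromosome 9, 21229730 to 21239361) had 42.9, 41.7 and 58.2 TPM in AC pretreated libraries, against 63.2, 55.0 and 50.5 TPM in untreated ones, a difference of -0.25 ± 0.17. AC replicates 1 and 2 lay below all untreated libraries and AC replicate 3 above untreated replicates 2 and 3. The level of Nfe2l2 over that of Keap1 was 3.75, 6.20 and 3.58 in AC pretreated libraries and 3.54, 3.80 and 4.56 in untreated ones, so these ratios overlapped too. Keap1 shares exon bases with an antisense gene, and whether the counting used strand was not given in the sources used here for this or any other gene.

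Among genes listed as NRF2 targets, Nqo1, which encodes a reductase that turns quinones into stable hydroquinones, stood at the low end. It had 1.35, 2.36 and 3.06 TPM in AC pretreated libraries, against 1.52, 1.31 and 1.92 TPM in untreated ones, a difference of 0.30 ± 0.28 (interval -0.33 to 0.94). These levels rest on 17 to 33 reads per library, and AC replicate 1 lay among the untreated libraries. Srxn1, which encodes sulfiredoxin, the enzyme that repairs over-oxidised peroxiredoxins, varied little: it had 63.1, 66.7 and 66.0 TPM in AC pretreated libraries, against 60.5, 60.7 and 64.1 TPM in untreated ones. Its difference of 0.08 ± 0.12 stayed between 0.06 and 0.11 on leaving out any 1 library, and the groups overlapped at untreated replicate 3.

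Glutathione is made by glutamate-cysteine ligase, with a catalytic subunit (Gclc) and a modifier subunit (Gclm), and then by glutathione synthetase (Gss), and its oxidised form is reduced by glutathione reductase (Gsr). Gclc had 11.4, 21.6 and 20.1 TPM in AC pretreated libraries, against 17.8, 18.1 and 17.8 TPM in untreated ones, a difference of -0.06 ± 0.24. The untreated libraries lay within a ratio of 1.02 of each other, and AC replicate 1 stood apart from all others. Gclm had 11.1, 12.7 and 9.12 TPM in AC pretreated libraries, against 10.5, 11.8 and 10.2 TPM in untreated ones, a difference of 0.01 ± 0.18. The level of Gclc over that of Gclm was 1.03, 1.70 and 2.21 in AC pretreated libraries and 1.70, 1.53 and 1.75 in untreated ones, so the subunits did not keep one ratio among the AC pretreated libraries. Gss averaged 5.36 ± 0.682 TPM in AC pretreated and 5.87 ± 0.475 TPM in untreated libraries (SD, n = 3 each). Gsr (chromosome 8, 33652523 to 33698163) had 34.6, 47.4 and 40.3 TPM in AC pretreated libraries, against 33.3, 30.0 and 37.8 TPM in untreated ones, a difference of 0.26 ± 0.17. Its 2 highest libraries were AC pretreated, and AC replicate 1 lay below untreated replicate 3.

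In the thioredoxin system, thioredoxin (cytosolic Txn1, mitochondrial Txn2) is kept reduced by thioredoxin reductases and bound by the inhibitor TXNIP. Txnrd1 encodes the cytosolic reductase, and Txnrd2, given further on, the mitochondrial one. Txn1 had 492, 402 and 290 TPM in AC pretreated libraries, against 346, 401 and 353 TPM in untreated ones, a difference of 0.08 ± 0.20. Its highest and its lowest library were AC replicates 1 and 3. Txnrd1 ran the other way among them, with 24.9, 40.3 and 41.0 TPM in AC pretreated libraries, against 37.5, 30.5 and 35.0 TPM in untreated ones, a difference of 0.01 ± 0.21. The level of Txn1 over that of Txnrd1 was therefore 19.8, 9.98 and 7.08 in AC pretreated replicates 1, 2 and 3, a wider span than the 9.21, 13.1 and 10.1 of the untreated libraries. Txn2 averaged 64.2 ± 13.5 and Txnip 267 ± 80.0 TPM in AC pretreated libraries, against 67.5 ± 3.21 and 263 ± 83.2 TPM in untreated libraries. Txnip shares exon bases with a gene on the other strand.

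Peroxiredoxins reduce peroxides through a reactive cysteine, with thioredoxin as the usual electron donor. Prdx1 (chromosome 4, 116685544 to 116700822) had 1031, 1207 and 759 TPM in AC pretreated libraries, against 761, 849 and 1016 TPM in untreated ones, a difference of 0.17 ± 0.20. AC replicate 3 was the lowest of the 6 and AC replicate 2 the highest. Prdx2, Prdx3, Prdx4, Prdx5 and Prdx6 had differences between -0.12 and 0.04. Prdx4, the peroxiredoxin of the endoplasmic reticulum, spread widest of the 6 among AC pretreated libraries, at 137, 115 and 70.9 TPM, against 114, 122 and 104 TPM in untreated ones. The summed level of the 6 peroxiredoxins was 1845, 1846 and 1279 TPM in AC pretreated libraries and 1429, 1541 and 1645 TPM in untreated libraries, with AC replicate 3 below and AC replicates 1 and 2 above every untreated library.

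Glutathione peroxidases remove peroxides at the expense of glutathione, and GPX4 acts on lipid peroxides within membranes. Gpx1 had 1071, 1010 and 890 TPM in AC pretreated libraries, against 946, 984 and 931 TPM in untreated ones, a difference of 0.05 ± 0.13. Gpx4 had 471, 415 and 308 TPM in AC pretreated libraries, against 367, 378 and 354 TPM in untreated ones, a difference of 0.10 ± 0.17. For both genes AC replicates 1 and 2 lay above and AC replicate 3 below all untreated libraries. Cat, which encodes the peroxisomal catalase, had 117, 190 and 180 TPM in AC pretreated libraries, against 165, 141 and 182 TPM in untreated ones, a difference of -0.03 ± 0.20, with AC replicate 1 the lowest of the 6.

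Superoxide dismutases turn superoxide into hydrogen peroxide, in the cytosol (Sod1), in mitochondria (Sod2) and outside the cell (Sod3). Sod1 averaged 98.1 ± 20.3 TPM in AC pretreated and 105 ± 8.14 TPM in untreated libraries. Sod2, which inflammatory signals are known to induce in macrophages, had 16.4, 14.4 and 14.8 TPM in AC pretreated libraries, against 14.7, 15.6 and 16.3 TPM in untreated ones, a difference of -0.03 ± 0.15, and the groups overlapped throughout. Sod3 was at 0 reads in 5 libraries and had 5 reads in AC replicate 2, the library with the highest sum of placental transcripts.

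Glutathione transferases couple glutathione to electrophiles, and the 2 largest differences between group means among the 33 genes were those of Gstm1 and Gstp1, over all 6 libraries and with a pseudocount of 1 TPM. With 0.1 TPM and by voom the largest was that of Nqo1, at 0.43 and 0.49. Gstp1 (chromosome 19, 4035407 to 4037985), the pi-class enzyme, had 25.3, 26.6 and 26.3 TPM in AC pretreated libraries, against 17.8, 19.7 and 23.5 TPM in untreated ones, a difference of 0.35 ± 0.16 (adjusted p = 1.0 by limma). It was the 1 antioxidant gene of 33 whose groups did not overlap with AC pretreated higher, against 0.936% of all genes tested, and 0 did not overlap with AC pretreated lower, against 3.48%. Gstm1 (chromosome 3, 108012255 to 108017973), a mu-class enzyme, had 111, 139 and 119 TPM in AC pretreated libraries, against 78.6, 85.3 and 116 TPM in untreated ones, a difference of 0.41 ± 0.18 (adjusted p = 1.0 by limma). Untreated replicate 3 lay within the AC pretreated range for Gstm1 and nearest to it for Gstp1. On leaving out 1 library the difference ran between 0.26 and 0.45 for Gstp1 and between 0.29 and 0.57 for Gstm1, lowest without untreated replicate 1 and highest without untreated replicate 3, and neither passed in any of these fits.

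The groups of the membrane-bound transferases overlapped, as did those of Gstm1. Mgst1 had 47.3, 57.8 and 41.6 TPM in AC pretreated libraries, against 39.4, 36.4 and 46.9 TPM in untreated ones, a difference of 0.25 ± 0.17, with AC replicate 3 and untreated replicate 3 in the other group's range. Mgst3 and the omega-class Gsto1 differed by -0.05 ± 0.16 and 0.09 ± 0.14. Mgst2 stayed at 0.0777 to 0.774 TPM in AC pretreated and 0.423 to 0.488 TPM in untreated libraries, on 2 to 26 reads. Gstp1 and Gstm1 have close paralogs: Gstp2 and Gstp3 were listed at 0 in all libraries, while Gstm4 and Gstm5 averaged 15.9 ± 2.01 and 16.4 ± 2.31 TPM in AC pretreated and 16.0 ± 1.53 and 13.2 ± 2.11 TPM in untreated libraries. How reads shared between such genes were counted was not given in the sources used here either.

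NADPH is the electron source for both systems. The genes of its supply and of the pentose phosphate pathway spanned a wide range of levels. Averages over the 6 libraries were 317 TPM for Taldo1, 148 for G6pdx, 109 for Pgd, 94.9 for Tkt and 0.736 for Me1. G6pdx, which encodes the glucose-6-phosphate dehydrogenase at the entry of the pentose phosphate pathway, had 138, 156 and 138 TPM in AC pretreated libraries, against 174, 148 and 134 TPM in untreated ones, a difference of -0.07 ± 0.14. The groups overlapped, with untreated libraries at both ends. Pgd and Tkt, later enzymes of the pathway, differed by -0.07 ± 0.13 and -0.11 ± 0.12, and Taldo1, the transaldolase gene, by 0.07 ± 0.16. Me1, the cytosolic malic enzyme gene, had 0.688 to 0.952 TPM in AC pretreated and 0.529 to 0.888 TPM in untreated libraries, on 13 to 37 reads. Esd, which encodes the S-formylglutathione hydrolase that frees glutathione in formaldehyde removal, averaged 163 ± 30.8 and 148 ± 8.58 TPM in AC pretreated and untreated libraries.

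The AC pretreated libraries spread more than the untreated ones, in the antioxidant genes much as over all genes tested. The SD of log2(TPM + 1) was larger in AC pretreated than in untreated libraries for 26 of 33 genes (78.8%, against 73.3% of all genes tested), with medians of 0.26 and 0.11, against 0.29 and 0.16 over all genes tested. AC replicates 1 and 3 took the opposite ends of the 6 libraries for 10 of 33 genes (30.3%), against 25.9% of all genes tested. For 9 of these 10, namely Txn1, Txn2, Prdx2, Prdx4, Prdx5, Gpx1, Gpx4, Sod1 and Taldo1, AC replicate 1 was the highest and AC replicate 3 the lowest. Txnrd1 was placed the other way. AC replicate 1 was the lowest library for Nfe2l2, Gclc, Txnrd1, Txnip, Cat and Tkt, 6 of 33 genes, against 47.5% of all genes tested, and the highest for 11, against 11.6%. AC replicate 3 was the lowest for 14, against 19.0%, and the highest for 2, Nqo1 and Txnrd1, against 24.9%.

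**Figure D3:**
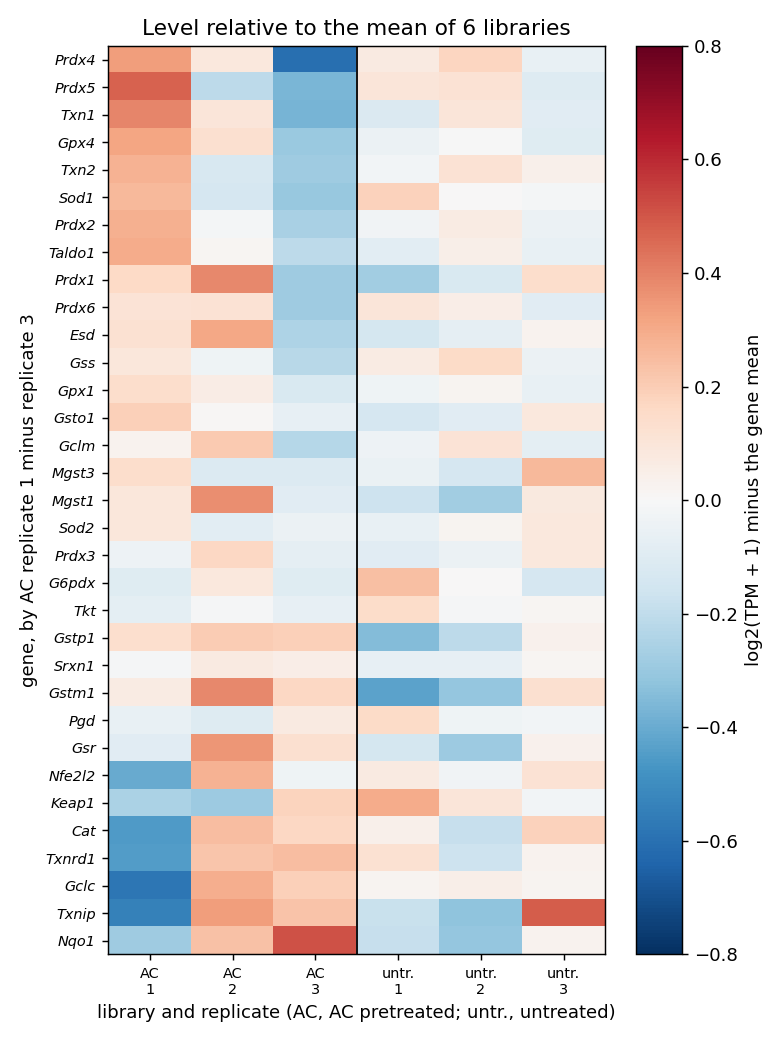
Level of the 33 antioxidant genes tested in each library on the log2(TPM + 1) scale, minus the mean of the 6 libraries, with AC pretreated libraries left of untreated ones and genes ordered by AC replicate 1 minus AC replicate 3. Prdx4, Prdx5 and Txn1 at the top are high in AC replicate 1 and low in AC replicate 3, and Gclc, Txnip and Nqo1 at the bottom run the other way, while untreated libraries mostly stay nearer 0.

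The difference between AC replicates 1 and 3 went with exon length over all genes. Spearman's rho between the difference and the merged exon length was -0.455 over 12383 genes tested with a length and -0.179 over the 33 antioxidant genes. Both are descriptions of the same pair of libraries. AC replicate 1 was the higher for 20 of 33 antioxidant genes (60.6%), whose median length was 2607 bases, against 35.1% of all genes tested with a length. The other 13 had a median length of 3123 bases. Over all genes tested those medians were 2320 bases for genes higher in AC replicate 1 and 5006 bases for genes lower there. Prdx4, Prdx5 and Txn1, higher in AC replicate 1 by 0.95, 0.84 and 0.76, have exon lengths of 2106, 2139 and 1051 bases. Txnrd1 and Gclc, with differences of -0.70 and -0.77, have lengths of 7086 and 3766 bases. Sod2, Gclm, Gss and Prdx6, of 10008, 6291, 5915 and 4804 bases, were also higher in AC replicate 1, and Nqo1 and Cat, lower there, have 1553 and 2613 bases. The part of length in the differences among AC pretreated libraries was not tested.

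**Figure D4:**
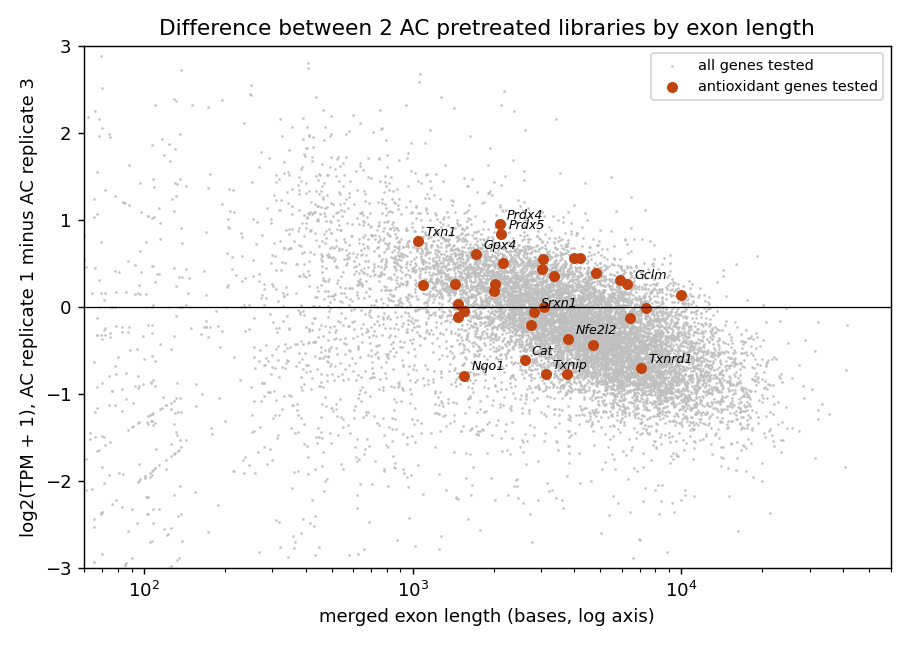
Difference between AC replicates 1 and 3 on the log2(TPM + 1) scale against merged exon length in bases on a log axis, for all genes tested in grey, with differences beyond 3 not shown, and the 33 antioxidant genes in orange. Longer genes tend to lie lower, with rho of -0.455 over all genes, while the antioxidant genes, with rho of -0.179, include long ones on both sides of 0.

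Replicates 1 and 2 of both groups, in which placental transcripts were found, and replicate 3, in which they were at or near 0, were also compared apart. The median difference over the 33 genes was 0.10 in replicates 1 and 2 and -0.15 between the libraries of replicate 3, beside -0.13 and 0.05 over all genes tested. Leaving out AC replicate 3 alone also gave a median of 0.10 over the 33 genes. Prdx1 differed by 0.47 in the 4 libraries and by -0.42 between the other 2, Mgst1 by 0.46 and -0.17, Keap1 by -0.47 and 0.20, Gstp1 by 0.45 and 0.16, Gstm1 by 0.59 and 0.03, and Gsr by 0.35 and 0.09. The second value of each pair sets 1 AC pretreated library against 1 untreated library, so no turn of sign can be read from it. In the 4 libraries 0 genes of the whole table passed by limma, with 599 at an unadjusted p under 0.05, among them 5 of the 33 antioxidant genes, namely Gstm1, Prdx1, Mgst1, Keap1 and Gstp1. The lone pair allows no test.

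The other genes of these pathways were read from 9 lists of 174 genes, 129 of them tested. None passed over all genes by limma, and 1 of 129 had an unadjusted p under 0.05, against 1.3% of all genes tested. This was Glrx, which encodes a glutaredoxin that removes glutathione from proteins: it had 87.9, 73.9 and 67.3 TPM in AC pretreated libraries, against 98.2, 99.5 and 92.2 TPM in untreated ones, a difference of -0.34 ± 0.14 (adjusted p = 1.0 by limma). Its groups did not overlap. This was so, with AC pretreated lower, for 1 of 9 genes of its list, against 3.48% of all genes tested. Means were higher for 42 and lower for 87 of the 129 genes, against 29.4% and 70.6% of all genes tested. Among other genes of glutathione synthesis, breakdown and cystine supply 3 of 9 had higher means and the median difference was -0.04. For 2 of the 9, Slc3a2 and Cndp2, the groups did not overlap, with AC pretreated lower. Slc7a11, the cystine transporter subunit that NRF2 is known to induce, stayed at 0.0634 to 0.403 TPM in AC pretreated and 0.0928 to 0.110 TPM in untreated libraries, while its partner Slc3a2 averaged 383 ± 25.6 and 424 ± 12.7 TPM.

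Among other NRF2 target genes 12 of 23 had higher means, with a median difference of 0.02. Hmox1, the heme oxygenase gene, had 624, 615 and 628 TPM in AC pretreated libraries, against 604, 563 and 573 TPM in untreated ones. These groups did not overlap, as for 1 of the 23 genes, against 0.936% of all genes tested with AC pretreated higher. The difference was 0.10 ± 0.12 (adjusted p = 1.0 by limma). Akr1b8, an aldo-keto reductase gene, differed by 0.29 ± 0.19. In the list of NRF2 partners and regulators 4 of 14 had higher means and the median was -0.09. Bach1 encodes a repressor that competes with NRF2 at its sites. It had 40.5, 76.2 and 95.6 TPM in AC pretreated libraries, against 78.7, 73.3 and 82.0 TPM in untreated ones. AC replicate 1 was the lowest, as for 47.5% of all genes tested. Mafk, a small MAF partner, differed by -0.33 ± 0.17. Sqstm1, which encodes the KEAP1-binding autophagy receptor p62, averaged 493 ± 15.7 TPM in AC pretreated and 536 ± 11.8 TPM in untreated libraries. It was the 1 gene of 14 in this list whose groups did not overlap, with AC pretreated lower, against 3.48% of all genes tested.

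Higher means, beside 29.4% of all genes tested, were 3 of 9 for glutaredoxins, other glutathione peroxidases and glyoxalases (median -0.06), 3 of 9 for other glutathione transferases (-0.02) and 7 of 29 for thioredoxin-fold and sulfoxide repair genes (-0.06). For the list of other NADPH supply genes they were 5 of 15 (-0.11). For lipid peroxide defence they were 4 of 11 (-0.03) and for phagocyte oxidant production 1 of 10 (-0.10). The median over all genes tested was -0.07. Txnrd2, the mitochondrial thioredoxin reductase gene, differed by 0.08 ± 0.18 and Idh1, a cytosolic source of NADPH, by 0.17 ± 0.24. Cybb, the catalytic subunit gene of the phagocyte NADPH oxidase, averaged 545 ± 139 TPM in AC pretreated and 576 ± 45.4 TPM in untreated libraries. Ncf1, a cytosolic subunit gene, averaged 272 ± 12.6 and 310 ± 13.7 TPM, a difference of -0.19 ± 0.12 with groups that did not overlap (adjusted p = 1.0 by limma). It was 1 of 10 in its list to do so, against 3.48% of all genes tested with AC pretreated lower. Groups also did not overlap, with AC pretreated lower, for 1 of 29 thioredoxin-fold and sulfoxide repair genes.

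The remaining genes with the smallest p of their lists had differences of both signs. Fth1, the ferritin heavy chain gene, differed by 0.26 ± 0.18, and Arrdc4, an arrestin-fold relative of Txnip, by 0.39 ± 0.24. Ltc4s, which encodes the leukotriene C4 synthase that uses glutathione, differed by 0.53 ± 0.38 and Gstm5 by 0.29 ± 0.18. Tfrc, the transferrin receptor gene, stood at 0.27 ± 0.34. On the lower side were Sesn2, a stress-induced sestrin gene, at -0.29 ± 0.19, the one-carbon enzyme genes Aldh1l1 and Mthfd2 at -0.31 ± 0.19 and -0.25 ± 0.24, and Nfe2l1, which encodes a relative of NRF2, at -0.23 ± 0.16. The dipeptidase gene Cndp2 differed by -0.17 ± 0.12, Gstcd by -0.21 ± 0.25 and Dhodh by -0.15 ± 0.19. Each of these had an adjusted p of 1.0 by limma.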

How the data were processed

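Poly(A) RNA was read as pairs on an Illumina instrument for 6 BMDM libraries, per the labels' protocols. Named without their roles in the submitters' processing notes are the mm10 build, featureCounts 2.0.3, Subread and STAR 2.7.10a. Which annotation, strand setting and filters were used was not given in the sources used here. A signal per gene and library, named as TPM, was deposited by the authors, but its columns sum to 54732 to 92831, not 1000000. Multiplied by the GENCODE M21 exon length and divided by 8.57, the deposited signal gave whole reads in all libraries for 23473 of 23829 genes (98.5%, tolerance 0.02 reads), so it was not scaled for depth. Those reads number 19042049 to 32212701 per library.

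Each library was rescaled to 1000000 TPM. Genes that reached 1 TPM in 3 or more libraries entered a test of log2(TPM + 1) with limma 3.58.1 (R 4.3.3, lmFit, eBayes with trend), 2-sided, with Benjamini-Hochberg adjustment over all genes and a threshold of 0.05. The test had been fixed for values already in TPM. It was tested on simulated data that were given the same spread in both groups. The AC pretreated libraries spread more than the untreated ones, so the simulation does not tell its power here. Replicates differed beyond sampling noise (chi-square per degree of freedom from 19.5 to 130), so none was counted as a duplicate. Of the 36 genes, 9 share exon bases with another annotated gene, namely Keap1, Gclm, Gss, Txnip, Prdx2, Prdx5, G6pdx, Tkt and Me1. For 8 of them such a gene lies on the opposite strand. It is protein-coding for G6pdx (Ikbkg), Prdx2 (Junb and Rnaseh2a), Prdx5 (Trmt112) and, beside antisense genes, Gss (Acss2). Tables and plots were made with matplotlib 3.10.9, scipy 1.17.1, numpy 2.4.6, pandas 2.3.3 and Python 3.11.15.

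The members and lists were chosen with earlier results of these data known. All 36 are named, with values in each library for Gstp1, the 6 smallest unadjusted p and 16 fixed genes, and of other pathway genes the 2 smallest p per list and 7 fixed genes, of which 1 is not reported here. The library values of Prdx4 and Sod3, the genes Lyz2, Gstp2, Gstp3 and Gstm4, the motifs and the printed promoters were chosen after values were seen. Alternatives changed the pseudocount, the filter, the scaling or the variance model, or used the replicate block, leaving out each library, and the libraries with and without placental transcripts (a sum above 1 TPM).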

Additional observations from a re-analysis of the deposited data

How the results depend on the processing

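Members called stayed at 0 under every alternative with a test, and 11 to 24 of the members tested had higher means. The share of all genes with higher means was not worked out for these alternatives. Over all genes, 1 gene passed by limma without a trend and 16 passed with the values as deposited, which carry depth, against 0. The replicate numbers were not taken as pairs, although placental transcripts followed them in both groups: deviations from the group means correlated at -0.06, 0.01 and 0.167 for numbers 1, 2 and 3, and AC replicates 1 and 2 correlated best with another number. With the replicate number as a block, 0 genes and 0 members passed, the median stayed at 0.01, and 225 genes had an unadjusted p under 0.05, against 164. The median was 0.10 over replicates 1 and 2, which held placental transcripts, and -0.15 between the single libraries per group without them. It ran from -0.02 to 0.10 on leaving out 1 library, highest without AC replicate 3. Leaving out 1 library gave 0 calls each time, and 4 members had an unadjusted p under 0.05 without AC replicate 1 (797 of all genes). Ranges were 0.03 to 0.36 for Prdx1, 0.15 to 0.37 for Gsr, -0.40 to -0.16 for Keap1, 0.12 to 0.35 for Mgst1 and 0.13 to 0.52 for Nqo1. In all, 21 of 33 members turned sign. Their ranges were -0.15 to 0.19 for Cat, 0.00 to 0.27 for Esd, -0.15 to 0.04 for G6pdx, -0.23 to 0.21 for Gclc, -0.10 to 0.12 for Gclm, -0.01 to 0.13 for Gpx1, -0.04 to 0.27 for Gpx4, -0.13 to 0.07 for Mgst3 and -0.27 to 0.07 for Nfe2l2. They were -0.14 to 0.14 for Prdx2, -0.04 to 0.09 for Prdx3, -0.32 to 0.15 for Prdx4, -0.32 to 0.10 for Prdx5, -0.10 to 0.10 for Prdx6, -0.28 to 0.00 for Sod1 and -0.08 to 0.01 for Sod2. For Taldo1 they were -0.07 to 0.19, for Txn1 -0.10 to 0.28, for Txn2 -0.25 to 0.03, for Txnip -0.15 to 0.29 and for Txnrd1 -0.11 to 0.24. Signs also turned with median-of-ratios scaling for Cat (0.04), G6pdx (0.00), Mgst3 (0.02), Pgd (0.00), Prdx6 (0.03) and Sod2 (0.04), and by voom on recovered reads for Cat (0.02), Mgst3 (0.00), Prdx6 (0.00) and Sod2 (0.01). With the values as deposited they turned for Gclm (-0.06), Gpx1 (-0.02), Prdx2 (-0.06), Prdx3 (-0.03), Taldo1 (0.00), Txnip (-0.06) and Txnrd1 (-0.06). In the libraries with placental transcripts they turned for Mgst3 (0.11), Prdx4 (0.09), Prdx5 (0.03), Prdx6 (0.04), Sod2 (0.02), Txn2 (0.03) and Txnrd1 (-0.09). The cause was not tested. All results rest on 3 libraries per group, and Nqo1 on 17 to 33 reads.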
